A study of Mus musculus with 6 samples.

Results

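The circadian clock of the hepatocyte was examined in 10 core clock genes, read in each of 6 RNA-seq libraries of mouse primary hepatocytes. The genes were listed by name from the known clock loop: *Arntl*, *Clock* and *Npas2* (positive limb), *Per1*, *Per2*, *Per3*, *Cry1* and *Cry2* (negative limb), and *Nr1d1* and *Nr1d2* (REV-ERB genes). All 10 were among the 25184 genes of the count table, and all 10 passed the filter on low counts that left 15105 genes. The clock was chosen by its values in these libraries, with the differences between the genotypes known, so those differences are given as a description and support nothing. A set of 20 further clock genes was read beside them.

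The question of the study was what the loss of SUCNR1, the receptor for extracellular succinate, does in hepatocytes. Controls were *Sucnr1* fl/fl mice (3 libraries, replicates 1, 2 and 3), in which loxP sites flank exon 2 of *Sucnr1* and no Cre is present. Hep-*Sucnr1* KO mice (3 libraries, replicates 3, 4 and 5) carry the same floxed alleles and a Cre transgene under the albumin promoter, which is active in hepatocytes. The Cre line had a C57BL6J background, and the mice were fed chow and kept on a light/dark cycle. Hepatocytes were isolated from the left lateral lobe by enzymatic digestion and a density gradient, plated on collagen in serum-containing medium with high glucose, and lysed after a night in culture. The clock time of isolation and of lysis, and the age and sex of the mice in these libraries, are not given in the sources used here. RNA was extracted on day 1 from 1 culture of each genotype (*Sucnr1* fl/fl replicate 1 and Hep-*Sucnr1* KO replicate 3) and on day 2 from 2 cultures of each. The labels do not say that the replicates come from separate mice, so p-values measure the spread between these samples, which may be technical.

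The libraries held 30504248 to 38770694 counts. Levels are in CPM, counts scaled to the size of the library with TMM factors, and are listed for controls (*Sucnr1* fl/fl) in the order of replicates 1, 2, 3 and for knockouts (Hep-*Sucnr1* KO) in the order of replicates 3, 4, 5. *Sucnr1* itself read 6.71, 3.55 and 3.40 CPM in controls, and 2.66, 0.827 and 0.152 CPM in knockouts. Every knockout library was thus below every control library, but Hep-*Sucnr1* KO replicate 3 lay close to the lowest control. Hepatocyte markers (8 genes such as *Alb* and *Ttr*) summed to 72455 to 96572 CPM in controls and 64466 to 100404 CPM in knockouts. All 6 Kupffer cell markers were tested, and they summed to 20.3 to 74.4 CPM in controls and 3.61 to 63.8 CPM in knockouts. The sums of 6 sinusoidal endothelial markers were 23.9 to 43.6 and 18.6 to 31.1 CPM, and those of 6 stellate cell markers, of which 4 passed the filter, were 4.65 to 20.8 and 3.40 to 7.83 CPM. The 6 cholangiocyte markers, of which 5 passed the filter, summed to 350.1 to 512 and 426 to 650.3 CPM. None of these sums separated the genotypes, no listed marker was at 0 in all libraries, and the part of other cells in the values below was not tested. In bulk RNA, fewer cells of a type and less RNA per cell cannot be told apart.

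The clock is a loop of transcription. A dimer of ARNTL (BMAL1) with CLOCK, or with its paralog NPAS2, binds E-boxes and drives the *Per* and *Cry* genes, whose proteins return to the nucleus and inhibit the dimer. The same dimer drives *Nr1d1* and *Nr1d2*, whose products, the REV-ERB repressors, compete with the ROR activators at ROR elements (ROREs) of *Arntl* and *Npas2*. In liver *Arntl* and the *Per* genes peak at roughly opposite parts of the day, which need not hold for every member of a limb. DBP, TEF and HLF activate, and NFIL3 represses, genes with a D-box, which carries clock output and feeds back on *Per* genes.

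Promoter sequences of some members in which such elements were found are shown first. RefSeq promoter windows (GRCm38.p6, 250 bases before to 50 after a start) were available for 9 of the 10 genes, 13 windows in all; *Per2* had no entry. Both strands were searched for the E-box CACGTG, the variant CACGTT, the D-box as TTATGTAA or TTATGCAA, and the RORE core as TAGGTCA or TGGGTCA. Motifs on either strand are in capitals in the stretches below (the first capitals of *Cry1* are the variant E-box on the opposite strand), which run 5′ to 3′ in the direction of the gene; the first 3 stretches end at the base before the start, and the *Arntl* stretch lies just after a start. *Per1* and *Cry1* are shown for their E-box, *Per1* and *Per3* for their D-boxes, and *Arntl* for its RORE.
*Per1* (chr11:69098699-69098948, + strand): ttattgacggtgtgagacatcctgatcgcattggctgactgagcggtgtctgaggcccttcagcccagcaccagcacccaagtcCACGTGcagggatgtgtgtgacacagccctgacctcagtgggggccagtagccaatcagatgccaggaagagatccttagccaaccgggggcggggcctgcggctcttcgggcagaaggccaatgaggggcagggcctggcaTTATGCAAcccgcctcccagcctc
*Per3* (chr4:151044666-151044915, − strand): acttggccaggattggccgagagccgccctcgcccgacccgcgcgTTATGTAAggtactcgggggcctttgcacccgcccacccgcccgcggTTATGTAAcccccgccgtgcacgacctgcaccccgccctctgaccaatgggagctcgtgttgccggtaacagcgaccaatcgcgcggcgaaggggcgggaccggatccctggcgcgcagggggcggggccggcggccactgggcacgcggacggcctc
*Cry1* (chr10:85185055-85185304, − strand): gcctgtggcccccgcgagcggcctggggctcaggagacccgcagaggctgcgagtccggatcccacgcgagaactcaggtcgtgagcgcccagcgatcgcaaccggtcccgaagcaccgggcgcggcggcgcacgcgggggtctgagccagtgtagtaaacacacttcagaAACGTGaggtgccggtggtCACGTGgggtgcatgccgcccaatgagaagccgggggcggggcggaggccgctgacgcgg
*Arntl* (chr7:113207529-113207558, + strand): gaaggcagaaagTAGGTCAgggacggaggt
The E-box was found in 1 of the 2 *Per1* windows and in the *Cry1* window, and in 7.15% of all 32851 windows of this length. The D-box was found in 1 *Per1* window and, at 2 positions, in the *Per3* window, and in 1.66% of all windows. The variant E-box was present in the windows of *Cry1*, *Cry2* and *Nr1d1* (4.68% of all), and the RORE core in 1 of 2 *Arntl* windows (6.45% of all). The windows of *Clock*, *Npas2* and *Nr1d2* held none of the motifs searched. A match is a description of the letters and does not show that a factor binds there.

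Levels were compared between genes per kilobase of exon (union of annotated exons). *Nr1d1* was the most abundant member at a mean of 146 CPM per kb (range over 6 libraries 117 to 180), and its range lay apart from that of *Nr1d2* (20.0, range 16.0 to 25.2). *Per1* (10.6, range 5.54 to 19.5) followed *Nr1d2*, and *Cry2* (3.76, range 2.90 to 5.74) followed *Per1*, each with a range that overlapped that of its neighbour. *Per2* (1.87), *Clock* (1.76) and *Cry1* (1.62) could not be ordered, since their ranges overlapped. The lowest were *Arntl* (0.771), *Npas2* (0.495) and *Per3* (0.368), whose ranges also overlapped, and the highest *Arntl* library, at 1.33, was just under the lowest *Cry1* library, at 1.35. *Clock* was the most abundant gene of the positive limb.

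The positive limb differed in behaviour from gene to gene. *Arntl* (ENSMUSG00000055116, chr7:113207465-113314126), the obligate partner in the activating dimer, read 5.15, 3.82 and 4.39 CPM in controls and 6.84, 9.98 and 4.64 CPM in knockouts. The genotypes overlapped, because Hep-*Sucnr1* KO replicate 5 was below the highest control, and the means were 4.45 ± 0.668 and 7.16 ± 2.68 CPM (SD, n = 3 each). The fitted log2 fold change, knockouts over controls with extraction day in the model, was 0.69 (SE 0.298), and it was 0.28 without Hep-*Sucnr1* KO replicate 4.

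*Npas2* (ENSMUSG00000026077, chr1:39193731-39363236), the paralog that can replace CLOCK, read 1.53, 1.11 and 1.68 CPM in controls and 1.90, 5.43 and 2.58 CPM in knockouts. Every knockout library was above every control library, which held for 6.54% of all genes tested, and the whole spread, 4.88-fold from lowest to highest library, was the widest among the 10 genes. The gap was set by few counts: the nearest libraries, Hep-*Sucnr1* KO replicate 3 (60 counts, exact Poisson 95% interval 1.45 to 2.44 CPM) and *Sucnr1* fl/fl replicate 3 (51 counts, 1.25 to 2.21 CPM), overlapped within counting error. Such intervals cover counting error only. The log2 fold change was 1.12 (SE 0.410), and 0.64 without Hep-*Sucnr1* KO replicate 4.

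*Clock* (ENSMUSG00000029238, chr5:76209868-76304792), the histone acetyltransferase partner of ARNTL, was the steadiest member. It read 25.1, 22.9 and 25.1 CPM in controls and 22.3, 27.1 and 22.0 CPM in knockouts, a spread of 1.23-fold, and its log2 fold change was −0.033 (SE 0.127). The SD of its log2 CPM over the 6 libraries stood at percentile 13.9 of all genes tested, against percentile 80.3 for *Arntl* and 92.2 for *Npas2*. Hep-*Sucnr1* KO replicate 4 was the highest library for all 3 genes of the positive limb.

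In the negative limb the *Per* genes varied most. *Per1* (ENSMUSG00000020893, chr11:69095217-69109960), the *Per* gene that also responds acutely to glucocorticoids and cAMP, read 110, 65.1 and 59.9 CPM in controls and 36.6, 31.2 and 57.0 CPM in the knockouts. Each knockout library lay below each control library, a pattern that 4.04% of all genes tested showed, but Hep-*Sucnr1* KO replicate 5 was close to the lowest control. Means were 78.3 ± 27.5 and 41.6 ± 13.6 CPM (SD, n = 3 each), and the log2 fold change was −0.86 (SE 0.295). Without *Sucnr1* fl/fl replicate 1 it was −0.50, and without Hep-*Sucnr1* KO replicate 3, or in the day 2 libraries alone, it was −0.52.

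*Per2* (ENSMUSG00000055866, chr1:91415982-91459324), a nonredundant repressor of the dimer, read 16.4, 16.7 and 10.3 CPM in controls and 6.87, 6.26 and 9.35 CPM in knockouts, again with every knockout library below every control library. The means were 14.4 ± 3.63 and 7.49 ± 1.64 CPM (SD, n = 3 each). Its log2 fold change, −0.94 (SE 0.248), was the lowest of the 10, and ranged from −1.17 to −0.77 when each library in turn was left out. The counts of *Per2* over those of *Arntl*, a ratio within a library that needs no scaling between libraries and was chosen after the values were seen, were 3.18, 4.37 and 2.34 in controls and 1.00, 0.627 and 2.01 in knockouts.

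*Per3* (ENSMUSG00000028957, chr4:151003652-151044665), the least abundant *Per* gene, read 6.58, 4.0 and 2.64 CPM in controls and 3.07, 1.77 and 3.16 CPM in knockouts. The genotypes overlapped, since *Sucnr1* fl/fl replicate 3 was below Hep-*Sucnr1* KO replicates 3 and 5, and the log2 fold change was −0.66 (SE 0.307). It was −0.43 without *Sucnr1* fl/fl replicate 1 and −0.99 without Hep-*Sucnr1* KO replicate 5. No exon base of any of the 10 genes was shared with an exon of another gene on the same strand. *Nr1d1* overlaps *Thra* on the opposite strand, and the counting used strand.

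The cryptochromes, which with the PER proteins form the repressor complex, had narrower spreads. *Cry1* (ENSMUSG00000020038, chr10:85131700-85185064) read 6.79, 6.56 and 4.75 CPM in controls and 4.59, 5.23 and 4.52 CPM in knockouts. *Cry2* (ENSMUSG00000068742, chr2:92403646-92434043) read 36.3, 27.7 and 19.2 CPM in controls and 21.1, 18.3 and 20.2 CPM in knockouts. In both, *Sucnr1* fl/fl replicate 3 lay within the range of the knockouts and the other 2 controls above it. The log2 fold changes were −0.33 (SE 0.196) for *Cry1* and −0.45 (SE 0.180) for *Cry2*. Without *Sucnr1* fl/fl replicate 1 they were −0.21 and −0.28, and *Cry2* read −0.30 without Hep-*Sucnr1* KO replicate 3.

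The REV-ERB genes overlapped between the genotypes. *Nr1d1* (ENSMUSG00000020889, chr11:98767932-98775333) read 555, 485 and 423 CPM in controls and 410.2, 472 and 360.4 CPM in knockouts. *Nr1d2* (ENSMUSG00000021775, chr14:18204054-18239127) read 136, 100.1 and 102.5 CPM in controls and 110, 86.7 and 113 CPM in knockouts. Their log2 fold changes were −0.23 (SE 0.162) and −0.12 (SE 0.141). Leaving out libraries moved them. Without *Sucnr1* fl/fl replicate 1 they were −0.12 and −0.019. Leaving out this library or knockout replicate 3 leaves the genotype estimate to the day 2 libraries. *Nr1d1* read −0.38 when knockout replicate 4 was left out, and *Nr1d2* read −0.26 when knockout replicate 5 was. Leaving out knockout replicate 3 gave −0.13 and −0.029, *Nr1d1* read −0.15 when knockout replicate 5 was left out, and *Nr1d2* read −0.040 when knockout replicate 4 was. *Sucnr1* fl/fl replicate 1 was the highest library for both, and for 6 of the 7 genes of the negative limb and the REV-ERB group together.

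**Figure D1:**
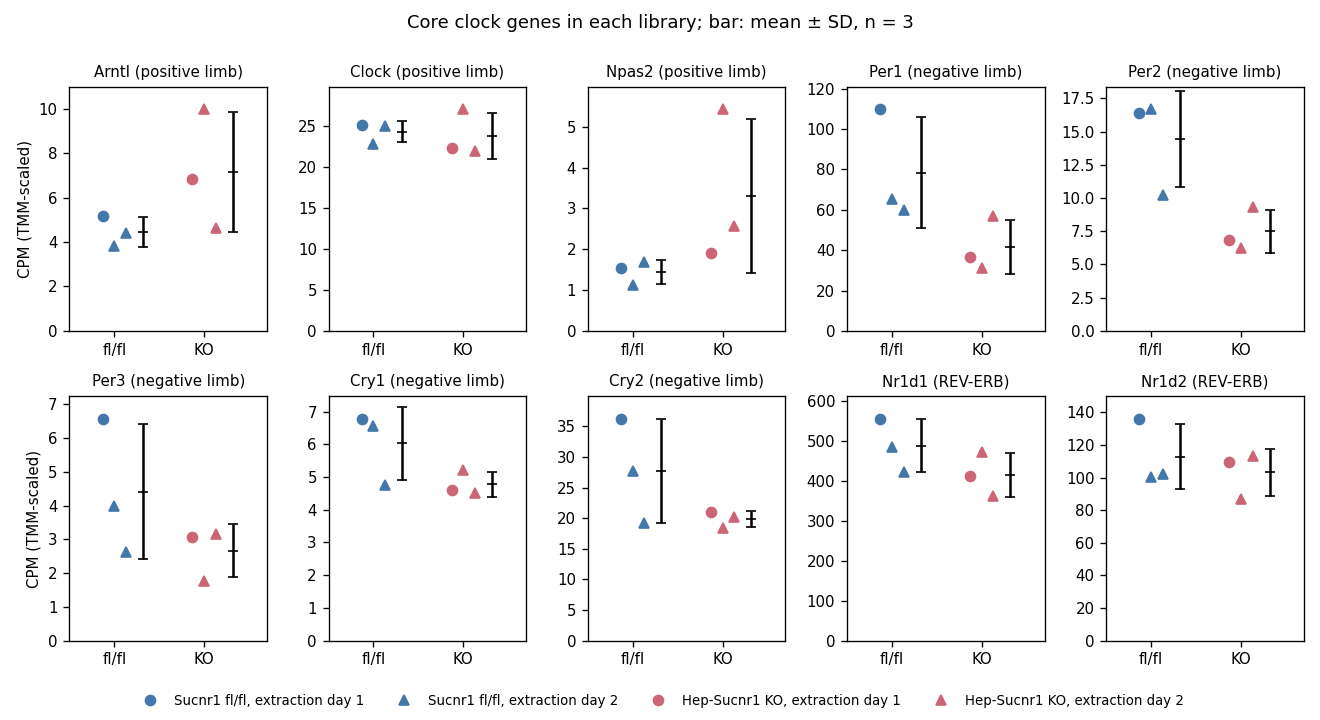
Level of each core clock gene (y axis, TMM-scaled CPM, each panel from 0) in the 3 *Sucnr1* fl/fl and 3 Hep-*Sucnr1* KO libraries (circles, extraction day 1; triangles, day 2), with the mean ± SD of each genotype as a bar. The points of *Npas2*, *Per1* and *Per2* do not overlap between the genotypes, and those of the other 7 genes do.

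No member passed the test across all genes. In edgeR's quasi-likelihood test of genotype, with Benjamini-Hochberg adjustment over 15105 genes, 0 genes had a false discovery rate (FDR) under 0.05 (0% of those tested). The FDR of each of the 10 members was 0.998. *Sucnr1*, the deleted gene, had a log2 fold change of −2.23 (SE 0.535) and the same FDR of 0.998. The lack of a call in edgeR therefore does not show that a member is unchanged. At an unadjusted p under 0.05 stood 4 of the 10 members (*Npas2*, *Per1*, *Per2* and *Cry2*) and 563 genes in all (3.73%); with the genes chosen on this contrast, nothing is read from that count. The Wald test of DESeq2 called 7 genes (0.0463%), among them *Sucnr1* (adjusted p 0.033) and none of them a member. Its lowest adjusted p among the members, 0.284, was that of *Per2*. In the negative limb 5 of 5 genes, in the REV-ERB group 2 of 2 and in the positive limb 1 of 3 had a log2 fold change below 0. Among all genes tested, 7481 of 15105 did. The median was −0.66 over the negative limb, −0.17 over the REV-ERB genes and 0.69 over the positive limb, beside 0.003 over all genes tested.

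**Figure D2:**
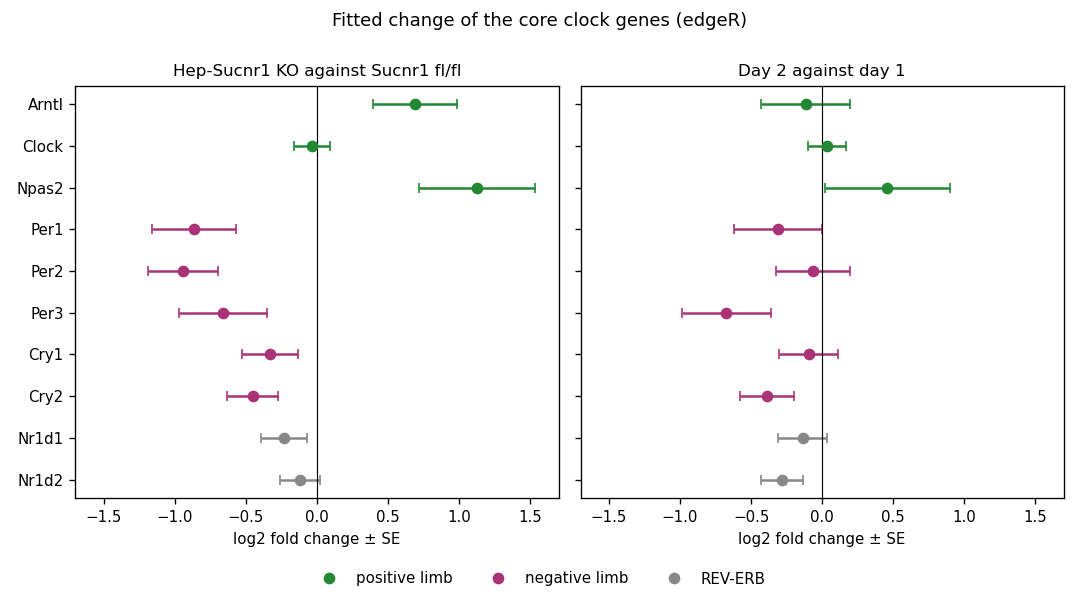
Fitted log2 fold change with its SE (x axis) of each core clock gene, for the genotypes (knockouts over controls) on the left and day 2 against day 1 on the right, coloured by group. By genotype, *Arntl* (0.69) and *Npas2* (1.12) are right of 0, *Clock* (−0.033) is at about 0 and the other 7 genes are left of 0; none passed an FDR of 0.05.

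The 2 limbs were then compared within each library. For each gene, log2 CPM was centred on the mean of the 6 libraries, and the mean over the 5 negative limb genes minus the mean over the 3 positive limb genes was taken as the limb difference. It was 0.88, 0.84 and 0.062 in the controls, and −0.35, −1.35 and −0.093 in the knockouts. All controls were above 0 and all knockouts below 0, but *Sucnr1* fl/fl replicate 3 and Hep-*Sucnr1* KO replicate 5 were close to each other. Here 0 is only the mean of the 6 libraries, so the means of the 2 genotypes mirror each other by construction. The means were 0.60 ± 0.46 and −0.60 ± 0.66 (SD, n = 3 each), a difference of −1.19 on the log2 scale, of which the negative limb gave −0.65 and the positive limb 0.54. No test was made on this score, since its members were chosen with these values known.

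The libraries did not divide into like ones within a genotype. Among controls, replicate 1 had a negative limb of 0.73 and replicate 2 of 0.36, while replicate 3, at −0.12, was level with Hep-*Sucnr1* KO replicate 5, at −0.11. Replicate 2 had the lowest positive limb of all, at −0.48. Among knockouts, replicate 4 had the highest positive limb (0.80) and the lowest negative limb (−0.55). It was the lowest library for 5 of the 7 repressor genes. Without it the genotype difference of the limb score was −0.82. In the extraction day 1 pair the difference was −1.23 and among the day 2 libraries −1.17, with 1 library of each genotype on day 1 and thus no replicate check there. In both days all 5 negative limb genes were lower in the knockouts on average. The log2 differences were −1.59 to −0.56 on day 1 and −0.77 to −0.20 on day 2. Since the genes were chosen with the genotype differences known, this split by day is a description and no separate support.

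**Figure D3:**
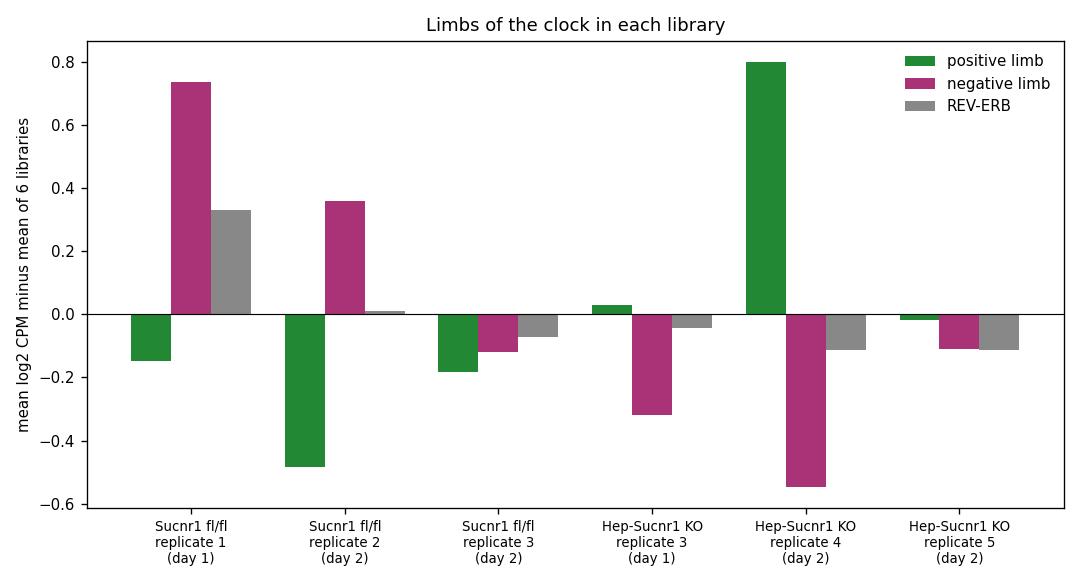
Mean over the genes of each group of log2 CPM, centred on the 6 libraries (y axis), in each library (x axis), with bars for the positive limb, negative limb and REV-ERB genes. The negative limb is above 0 in *Sucnr1* fl/fl replicates 1 (0.73) and 2 (0.36), and Hep-*Sucnr1* KO replicate 4 has the highest positive limb (0.80) and the lowest negative limb (−0.55).

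The genotype values were set against a further feature of the libraries. The library names carry index numbers in 2 separate runs, one with *Sucnr1* fl/fl replicates 1 and 2 and the other with *Sucnr1* fl/fl replicate 3 and all 3 knockouts. With this run as a further term, the log2 fold changes of *Per1*, *Per2*, *Per3*, *Cry2* and *Cry1* were −0.58, −0.42, −0.16, −0.031 and 0.019, and those of *Arntl*, *Npas2* and *Clock* were 0.67, 1.07 and −0.068. *Nr1d1* read −0.053 and *Nr1d2* −0.080 in that fit. Among the output genes described further on, *Dbp* read −0.79, *Tef* −0.31 and *Hlf* −0.077. The limb difference between the genotypes was −0.66 within the second run, where 1 control stood against 3 knockouts, a comparison chosen after the values were seen. In the fit with the run as a term, only *Sucnr1* fl/fl replicate 3 stands for the controls in the second run. Only the sizes of the differences are therefore given for it. The labels do not call the runs a batch, and run and genotype cannot be fully told apart.

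**Figure D4:**
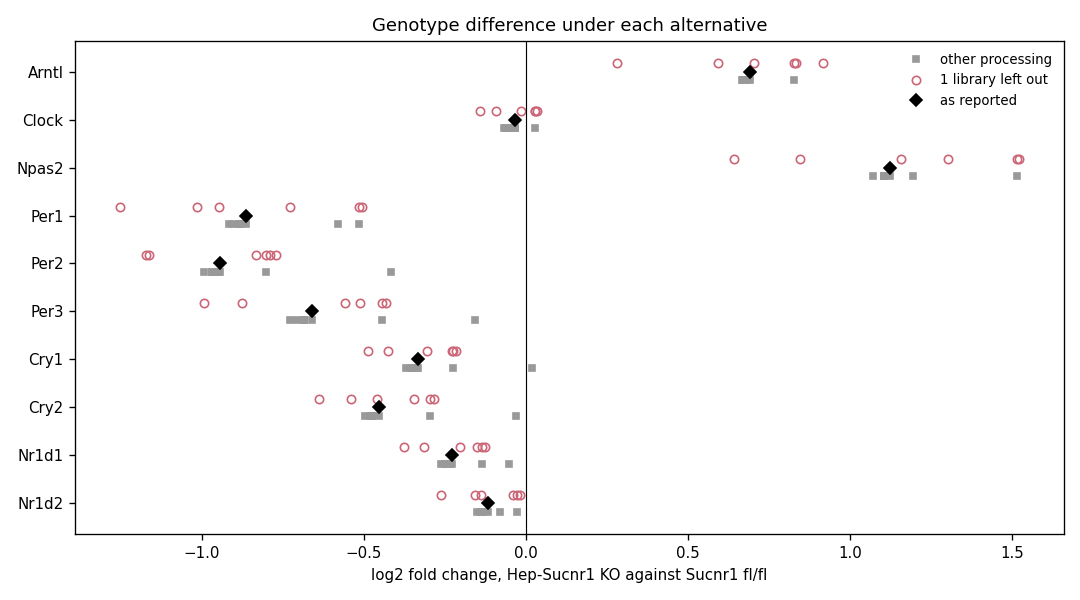
Log2 fold change of knockouts over controls (x axis) of each core clock gene as reported (diamond), with each library left out (open circles) and under other processing (squares). *Arntl*, *Npas2*, *Per1*, *Per2*, *Per3*, *Cry2*, *Nr1d1* and *Nr1d2* stay on 1 side of 0 in the 14 alternatives, while *Clock* and *Cry1* cross it.

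Extraction day was the other comparison. In the test of day 2 against day 1, 0 of 15105 genes passed an FDR of 0.05 (0%) in edgeR, and 1132 had an unadjusted p under 0.05 (7.49%), none of them a member; DESeq2 called 225 genes (1.49%), again without a member. The FDR of the members ran from 0.734 to 0.995. The largest values were −0.67 (SE 0.316) for *Per3* and 0.46 (SE 0.441) for *Npas2*. No member had all day 2 libraries below all day 1 libraries, against 6.29% of genes, or all above them, against 8.51%. The limb difference was −0.40 from day 1 to day 2 and read 0.21 without *Sucnr1* fl/fl replicate 1 and 0.0026 without Hep-*Sucnr1* KO replicate 4. The interaction of genotype with day passed an FDR of 0.05 for 0 genes (0%) in edgeR, with 557 genes (3.69%) and 0 members at an unadjusted p under 0.05, and DESeq2 called 4 genes (0.0265%) and 0 members. The widest gaps between the days were those of *Npas2* (genotype difference of 0.30 on day 1 and 1.41 on day 2, interaction 1.21, SE 0.783) and *Per1* (−1.59 and −0.57, interaction 1.08, SE 0.494).

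The output genes of the clock were read from the further list. *Dbp*, an activator of D-box genes and a direct target of the ARNTL dimer, read 33.1, 29.2 and 22.5 CPM in controls and 18.4, 8.24 and 16.8 CPM in knockouts. *Tef*, its paralog, read 82.5, 70.1 and 56.9 CPM in controls and 50.4, 39.8 and 53.2 CPM in knockouts. In both genes every knockout library was below every control library (4.04% of all genes tested), and the log2 fold changes were −0.98 (SE 0.260) and −0.54 (SE 0.155), with an FDR of 0.998 each. *Hlf*, the third activator, was lower on average (5.58 ± 1.21 against 4.16 ± 0.579 CPM; SD, n = 3 each; log2 fold change −0.42) and overlapped between the genotypes. *Nfil3*, which represses through the same element, read 57.3, 53.0 and 35.7 CPM in controls and 50.1, 58.6 and 26.6 CPM in knockouts, with a log2 fold change of −0.10.

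Of the 20 further clock genes, 0 passed an FDR of 0.05 by genotype in edgeR. In the same test 2, *Dbp* and *Tef*, had an unadjusted p under 0.05 (3.73% over all genes). A log2 fold change below 0 was found in 16 of the 20, with a median of −0.15, and in 7481 of all 15105 genes tested. By extraction day, 0 of the 20 passed an FDR of 0.05 and 3 (*Bhlhe40*, *Bhlhe41* and *Gsk3b*) had an unadjusted p under 0.05 (7.49% over all genes). The day values that were largest in each direction were 0.68 for *Arntl2*, a paralog of *Arntl*, and −0.65 for *Bhlhe41*, an E-box repressor.

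**Figure D5:**
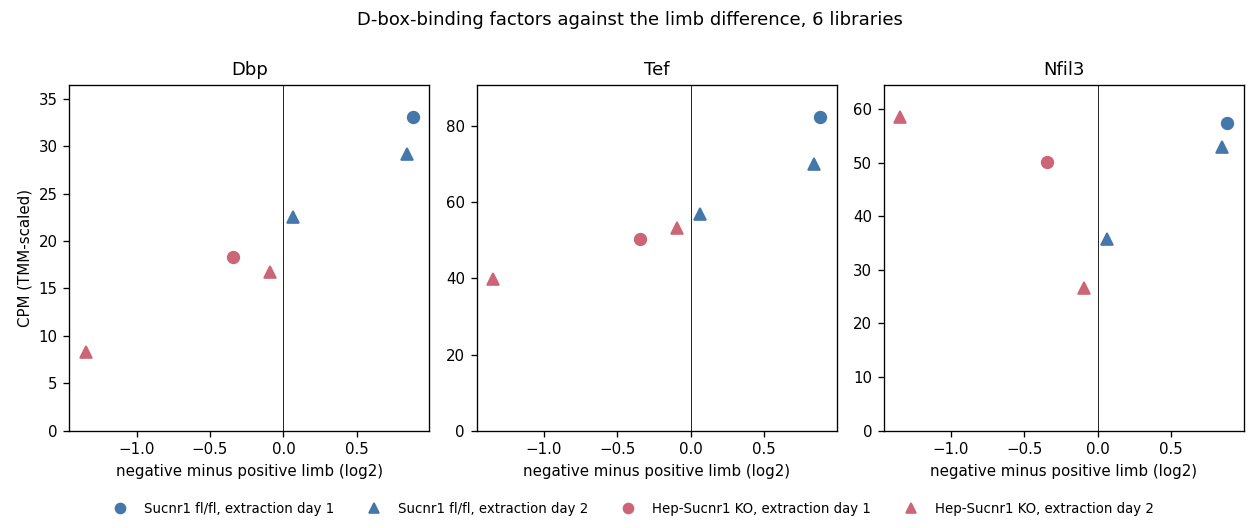
Level of *Dbp*, *Tef* and *Nfil3* (y axis, TMM-scaled CPM from 0) against the limb difference (x axis, log2) in the 6 libraries, coloured by genotype. *Dbp* and *Tef* run from 8.24 and 39.8 CPM in Hep-*Sucnr1* KO replicate 4 to 33.1 and 82.5 CPM in *Sucnr1* fl/fl replicate 1, whereas *Nfil3* is highest, at 58.6 CPM, in Hep-*Sucnr1* KO replicate 4.

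Genes with a pattern like the limb difference were sought among 1555 genes outside the 10 with a mean of at least 5 CPM and an SD of log2 CPM of at least 0.3. Pearson's r was highest for *Kcnk5* (0.99), *Phf20* (0.99), *Tfcp2l1* (0.99), *Dbp* (0.98) and *Tef* (0.97). It was lowest for *Paox* (−0.99), *Hacl1* (−0.97), *Them7* (−0.97), *Prodh* (−0.93) and *Gsta3* (−0.93). Spearman's rho was 0.94 to 1.00 for the first set and −0.94 to −0.89 for the other. Without the 2 libraries farthest from the median of the limb difference (*Sucnr1* fl/fl replicate 1 and Hep-*Sucnr1* KO replicate 4), r was 0.91 to 1.00 and −0.999 to −0.69. These are extremes out of many genes over 6 libraries that also differ in genotype, and they describe likeness only. *Kcnk5*, *Phf20*, *Tfcp2l1*, *Dbp* and *Tef* also have every knockout library below every control (4.04% of all genes tested), as does the limb difference. *Paox*, *Hacl1* and *Them7* have every knockout library above every control (6.54%), while *Prodh* and *Gsta3* overlap between the genotypes. The place of these genes here is thus no independent support.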

How the data were processed

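Stranded mRNA libraries of 6 hepatocyte cultures were sequenced in read pairs. The authors trimmed reads with Trim Galore 0.6.7, aligned them to GRCm38 with STAR 2.7.10a and counted pairs per gene by strand with featureCounts and the Ensembl annotation; they deposited 1 table of raw counts, which are not normalized. How pairs matching several genes were counted is not given in the sources used here. Of 25184 identifiers, 25096 had a symbol in GENCODE M21 (GRCm38).

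Genes with a mean DESeq2-normalized count above 5 were kept (15105). edgeR 4.0.16 (R 4.3.3) fitted extraction day and genotype with TMM scaling; genotype, day and their interaction were tested with the quasi-likelihood test and Benjamini-Hochberg adjustment over all genes (FDR 0.05). SEs were computed from the log2 fold change and its F statistic. Log2 CPM used a prior count of 2. DESeq2 1.42.0, other scalings and filters, other terms and each library left out were alternatives. Tests were checked on simulated data. Tables and figures were made with Python 3.11.15.

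Totals of 30504248 to 38770694 counts per library put the member with the fewest counts, *Npas2*, at 37 counts or more. The common biological coefficient of variation was 0.206.

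The members, the lists, the limb score and the named genes were chosen with earlier results of these data known. Named were the 10 members, *Sucnr1*, *Dbp*, *Tef*, *Hlf* and *Nfil3*, further clock genes called at an FDR of 0.05 (0 genes) or with the largest value in each direction (1 of these is not reported here), and the 5 genes with the highest and the lowest r with the limb difference. *Bhlhe40* and *Gsk3b* were named after their values were seen.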

Additional observations from a re-analysis of the deposited data

How the results depend on the processing

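The count of core clock members past the threshold was 0 for genotype, for day and for their interaction in every alternative that was run, and so was the count of further clock genes for genotype and day. Of all genes, DESeq2 called 7 for genotype and 225 for day, the table without a filter gave 122 for day, and leaving out 1 library gave 0 for genotype and 0 to 29 for day, the 29 without *Sucnr1* fl/fl replicate 2. The limb difference between the genotypes lay between −1.46 and −0.82 with 1 library left out and between −1.27 and −1.06 under other choices of scaling, genes and days; the index run was not a term for this score, and within the second run alone it was −0.66 (added after seeing the data). The limb difference between the days lay between −1.02 and 0.21 with 1 library left out; it was 0.21 without *Sucnr1* fl/fl replicate 1 and 0.0026 without Hep-*Sucnr1* KO replicate 4, and the cause was not tested.

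For genotype, 8 of the 10 members kept their direction in 14 alternatives. *Clock* read 0.028 in the day 2 libraries alone, and leaving out single libraries gave −0.14 to 0.036. The index run as a term gave 0.019 for *Cry1* and 0.27 for *Nfil3*. *Nfil3* was lowest (−0.50) when knockout replicate 4 was left out and highest (0.15) when knockout replicate 5 was. For day, 3 of the 10 kept their direction (*Per3*, *Cry2* and *Nr1d2*). With 1 library left out, the day values ran from −0.43 to 0.098 for *Arntl*, −0.11 to 0.14 for *Clock*, −0.18 to 1.08 for *Npas2*, −0.85 to 0.27 for *Per1*, −0.31 to 0.18 for *Per2*, −0.30 to 0.087 for *Cry1* and −0.33 to 0.020 for *Nr1d1*. The highest of each of these ranges was without *Sucnr1* fl/fl replicate 1. Leaving out a day 1 library leaves 1 library for that day, which then adds nothing to the genotype estimate. For genotype, leaving out either day 1 library and taking the day 2 libraries alone are thus nearly the same estimate, not separate checks. No paired analysis was possible because the genotypes share only the replicate number 3, and these 2 libraries were extracted on different days.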

Other observations

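*Per1* is also a target of the glucocorticoid receptor. The other 9 genes of a list of glucocorticoid-induced genes, such as *Fkbp5* and *Tsc22d3*, summed to 2180, 1806 and 2277 CPM in the controls (replicates 1, 2, 3) and to 2157, 2244 and 2246 CPM in the knockouts (replicates 3, 4, 5). The range of the knockouts lay within that of the controls. Of the 9 genes, 0 had knockout libraries all above (6.54% of all genes tested) or all below (4.04%) the controls. A list of 10 immediate early genes, such as *Fos* and *Egr1*, which are induced soon after a stimulus, summed to 2402, 2072 and 2201 CPM in controls and 2046, 2076 and 1959 CPM in knockouts. Hep-*Sucnr1* KO replicate 4 exceeded the lowest control by a small margin, and 0 of the 10 genes separated the genotypes. With those shares over all genes, nothing is read from a count of 0 in lists this short. The part of either list in the *Per1* values was not tested.

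The genes that act on the stability of the clock proteins were near level. *Csnk1d* and *Csnk1e*, the casein kinases that phosphorylate PER, varied 1.25-fold and 1.13-fold over the 6 libraries, and *Fbxw11*, a ubiquitin ligase subunit for PER, varied 1.21-fold. These 3 genes were chosen after their values were seen. In comparison *Per2*, whose protein they act on, varied 2.67-fold.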
